A study of Homo sapiens with 402 samples.

Results

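The genes described here are 40 interferon-stimulated and antigen-presentation genes, taken from a named list by their symbols in the deposited count files. The files of 4 plates list 34718 symbols and hold 39 of the 40 genes. The files of the plate with DDE list 15081 symbols and hold 38. XAF1 was not analysed here, and MX2 is in the files of the 4 plates but not in those of the DDE plate. By role, the list holds 4 transcription factors, 11 genes of RNA sensing and RNA-directed defence, 6 membrane and particle restriction factors, 4 genes of the ISG15 and ADP-ribosylation systems, 8 other interferon-induced genes and 7 antigen-presentation genes.

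The study exposed MCF10A cells, a nontumorigenic human breast epithelial line grown here without genetic change (wild type), to 21 chemicals at 4 doses (0.025, 0.25, 2.5 and 25 µM) for 48 h and sequenced cDNA made in the lysate of each well. The 402 libraries are 333 dosed and 69 control libraries, with 4 libraries at most doses and each chemical compared with the vehicle controls of its own plate. Arsenic, cadmium, copper, lead and mercury shared 15 water controls (plate 3153-AT), BPA, BPF, BPS, MPB and PPB shared 15 DMSO controls (3206-AT), and DCB_14, DCP_25, PCB153, PCB187 and thiram shared 15 DMSO controls (3284-AT). On plate 3240-AT, PFDA, PFNA, PFOS and phenanthrene shared 12 DMSO controls, and PFOA had 4 water controls. DDE was compared with 8 controls that carry its plate barcode, although their labels name water and plate 3153-AT. The labels call the libraries of a dose biological replicates of 1 cell line at 1 passage and do not say that they came from separate cultures, so p-values measure the spread between these libraries. In bulk RNA, fewer cells expressing a gene and less of its RNA per cell cannot be told apart.

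Interferons bind receptors that activate the kinases JAK1 and TYK2, which phosphorylate transcription factors such as STAT2. A complex that holds STAT2 and IRF9 binds a DNA element, the interferon-stimulated response element (ISRE), in front of many of the genes listed here, and interferon gamma acts through a further element, the gamma-activated site (GAS). The products sense viral RNA, hold viruses at membranes or display peptides on HLA molecules, and epithelial cells keep some of them on without added interferon.

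Promoters were read from a RefSeq table (GRCh38.p14), which matched 33 of the 40 genes with 42 promoters. IRF7, IFIT2, OAS2, OASL, IFITM2, MX2 and HLA-E are named here without one. The 250 bases before each start were searched on both strands for the ISRE core, which is GAAA, any 2 bases and GAAA again (TTTC, any 2 bases and TTTC when read on the other strand), and for the GAS palindrome TTCNNNGAA, where N is any base. The 2 motifs can overlap and were counted separately. The ISRE core was present in 57.1% of the 42 promoters (24, of 21 genes), against 3.02% of all 35116 promoters of the table. The GAS motif was present in 31% (13, of 12 genes) against 6.57% of all, and 7 genes had neither. Such matches describe the letters of the window and are not evidence of binding.

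The promoter stretches below belong to genes that hold a motif and are named in 4 or more comparisons, together with IFITM1. ISG15, MX1 and B2M are among them because their values are given whether or not they passed, and none of the 3 passed against controls in any chemical. Capitals mark the ISRE core, or in IRF1 the GAS motif, and each stretch is written in the direction of its gene.
IFITM1 (chr11:313964-314039, plus strand): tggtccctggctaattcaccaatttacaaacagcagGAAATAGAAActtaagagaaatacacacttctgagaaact
IFITM3 (chr11:320861-320948, minus strand): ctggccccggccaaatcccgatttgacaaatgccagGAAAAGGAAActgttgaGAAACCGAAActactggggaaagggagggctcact
B2M (chr15:44711337-44711424, plus strand): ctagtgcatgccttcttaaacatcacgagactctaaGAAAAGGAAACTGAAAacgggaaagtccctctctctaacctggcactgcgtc
IFIT1 (chr10:89392471-89392565, plus strand): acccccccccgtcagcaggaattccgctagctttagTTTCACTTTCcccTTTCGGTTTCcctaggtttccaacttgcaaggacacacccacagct
ISG15 (chr1:1013348-1013435, plus strand): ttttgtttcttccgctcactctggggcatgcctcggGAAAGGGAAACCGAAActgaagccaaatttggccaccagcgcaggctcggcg
MX1 (chr21:41431818-41431899, plus strand): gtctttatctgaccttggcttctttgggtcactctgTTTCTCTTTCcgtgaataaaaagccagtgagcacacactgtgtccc
OAS3 (chr12:112938295-112938473, plus strand): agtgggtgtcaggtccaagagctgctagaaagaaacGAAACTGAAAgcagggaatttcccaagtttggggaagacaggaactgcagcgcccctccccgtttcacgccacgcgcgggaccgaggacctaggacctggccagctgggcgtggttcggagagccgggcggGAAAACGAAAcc
IRF1 (chr5:132490853-132490933, minus strand): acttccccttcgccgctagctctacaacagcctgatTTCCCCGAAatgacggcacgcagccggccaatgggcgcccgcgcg

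In unexposed cells the list was not at one level. On a scale of counts per 1000000 counts of the library (CPM) per kb of exon, in the DMSO controls of plate 3206-AT, IFITM3 was highest at 412 and IFITM2 followed at 187. Both encode membrane proteins that hold enveloped viruses in endosomes. B2M, the light chain of HLA class I, was at 109, HLA-C at 90.3, the tetherin gene BST2 at 69.6, HLA-E at 65.1 and the immunoproteasome subunit gene PSMB8 at 27.8. At the other end, MX1, a GTPase that blocks incoming virus particles, was at 0.08, and IFI27, OAS2 and SAMD9L were each at 0.07. Levels also differed within a role: MX1 and IFITM1 (2.53) are grouped with IFITM3, and the immunoproteasome gene PSMB9 (3.14) with B2M.

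Total counts, in units of 1000000 (M), ran from 1.93 to 23.9 M in the plate 3153-AT controls (median 12.6 M), and from 2.31 to 22.5 M in the plate 3284-AT controls (median 15.1 M). On the 4 larger plates the label numbers split the libraries into a low-numbered set (dosed libraries 1 and 2 and the low-numbered controls) and a high-numbered set (dosed libraries 3 and 4 and the high-numbered controls). On plate 3153-AT the low-numbered controls had a median total of 20.9 M and the high-numbered ones 3.17 M. The 2 sets also differed in the genes studied: IFITM2 was at 464 to 582 CPM in the low-numbered and 153 to 237 CPM in the high-numbered controls of that plate, and IFITM3 at 1142 to 1331 against 331 to 466. Values within each set are therefore given beside the results they touch. The epithelial markers of the line (KRT5, KRT8, KRT14, KRT18, CDH1, EPCAM and TP63) were present on the plates of arsenic and thiram, and of the leukocyte markers on plate 3153-AT, PTPRC was at 0 in 83 of the 93 libraries and CD3E in 92, while CD14 had a median of 37.3 CPM and was at 0 in 2.

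At 25 µM, members of the list passed the test (edgeR's quasi-likelihood test, Benjamini-Hochberg adjusted p under 0.05 over all genes) in 7 of the 21 chemicals. Arsenic changed 24 members (61.5% of those tested, against 41.4% of all genes) and thiram 13 (34.2% against 25.9%). DDE changed 5 (13.9% against 7.77%) and MPB 2 (5.26% against 1.38%). Copper changed 2 (5.13% against 5.09%), and cadmium and lead 1 each (2.56% in both, against 11% and 3.85%). In copper the share was near that of all genes, and in cadmium and lead it was below it. The map of log2 differences at the highest dose shows arsenic as a mixture of higher and lower members and thiram as lower in most of its calls. In the remaining 14 chemicals edgeR called 0 of 533 member tests, and DESeq2 also called 0. Their unadjusted p was under 0.05 in 51 tests (9.57%), against 6.28% of all gene tests in the same comparisons, of which edgeR called 0.0186%.

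**Figure D1:**
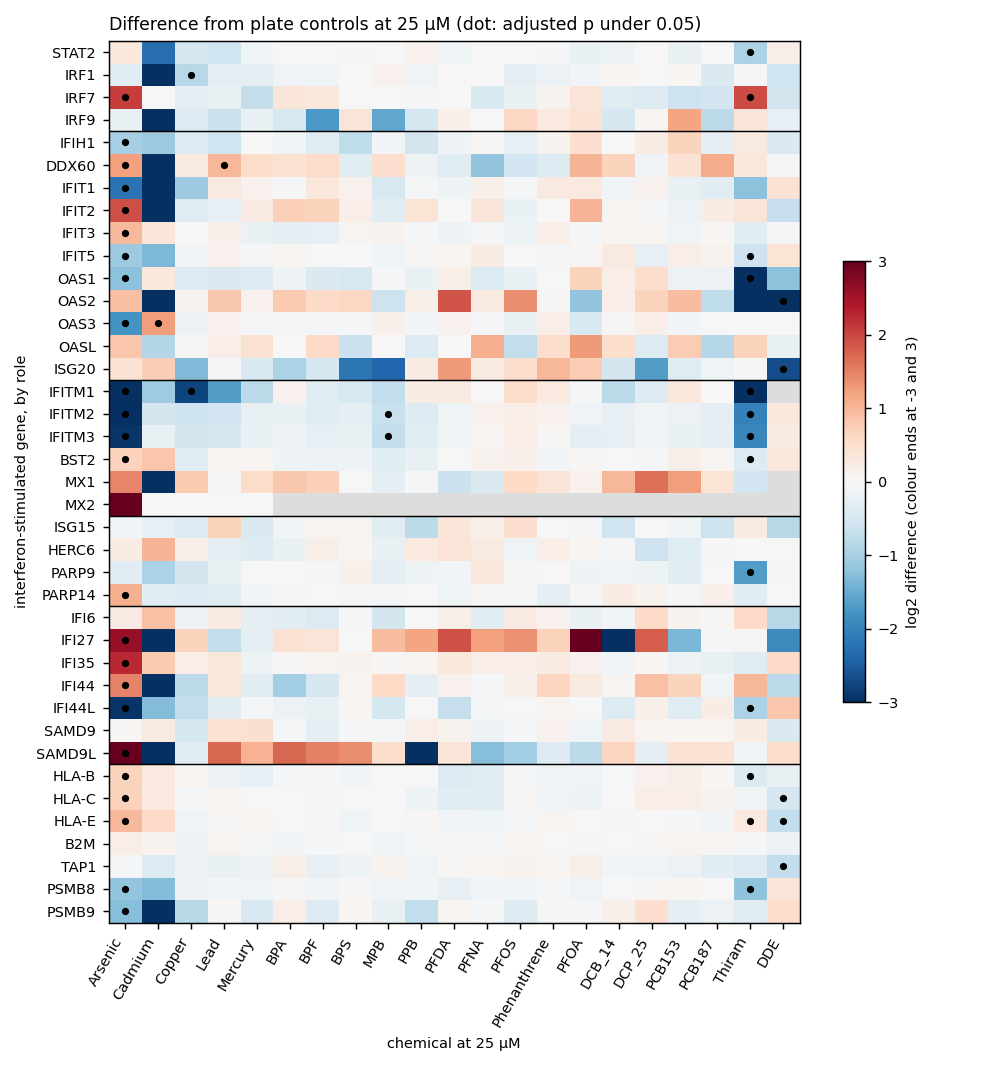
Each row is a gene of the list, ordered by role, and each column a chemical at 25 µM; colour gives the log2 difference from the plate's controls (ends at -3 and 3), a dot marks adjusted p under 0.05 and grey a gene not tested. Dots gather in the arsenic column (24) and the thiram column (13).

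Arsenic at 25 µM lowered the IFITM genes and several RNA-directed effectors while raising IRF7, IFI35, PARP14 and the class I HLA genes. Of 39 members tested, 13 were higher and 11 lower. Over all 24295 genes tested, 41.4% passed the same test (5635 higher and 4416 lower), against 61.5% of the list, within a response that was itself wide. The members and all genes were not matched for level, and the difference between the shares was not tested. The median log2 difference was 0.25 over the members and 0.00 over all genes. By role, calls were 1 higher of 4 transcription factors, 3 higher and 5 lower of 11 RNA-directed genes, 1 higher and 3 lower of 6 membrane factors, 1 higher of 4 in the ISG15 and ADP-ribosylation group, 4 higher and 1 lower of 7 other induced genes, and 3 higher and 2 lower of 7 antigen-presentation genes.

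The IFITM genes lie side by side on chromosome 11 (GRCh38; IFITM2 307631 to 315272, IFITM1 313506 to 315272, IFITM3 319669 to 327537). IFITM1, whose product restricts viruses at the cell surface, had no count in the 4 arsenic libraries, while the controls ran from 0 to 10.9 CPM with a median of 6.79. With 3 counts over the arsenic group as the floor, this is at least 92.0-fold lower than the pooled controls, whose counts come mostly from the deep low-numbered libraries. IFITM1 averaged 8.2 ± 1.43 CPM in the low-numbered controls (SD, n = 8) and 1.47 ± 1.68 CPM in the high-numbered ones (n = 7, from 0 to 4.02). In the edgeR fits within each set it passed at an adjusted p of 1e-06 and 0.0413. IFITM2 stood at 47, 43.2, 42.4 and 28.8 CPM in libraries 1 to 4, against a control range of 153 to 582 (median 464), a log2 difference of -3.25 ± 0.48 (SE, adjusted p = 1.14e-08). IFITM3 stood at 126, 146, 95 and 86.4 CPM, against 331 to 1331 (median 1142), a difference of -2.91 ± 0.49 (adjusted p = 3.63e-07). For IFITM2 and IFITM3 all 4 arsenic libraries lay below every control, including the high-numbered ones. Within the low-numbered libraries the difference was -3.51 for IFITM2 and -3.14 for IFITM3, and within the high-numbered ones -2.33 and -2.04. The annotated models of IFITM1 and IFITM2 overlap and the family members resemble each other in sequence, and how the authors assigned shared reads is not given in the sources used here, so the split between the family members is uncertain.

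Of the other lower members, IFI44L, an interferon-induced gene of little known function, was at 2.89, 5.03, 2.99 and 4.31 CPM against 13.8 to 36.6 in the controls (median 29.6), a difference of -2.94 ± 0.38 (adjusted p = 2.31e-10). The arsenic and control ranges did not overlap. IFIT1, which binds foreign RNA through its cap, was at 0.643, 0, 0.390 and 1.04 CPM against 1.13 to 8.2 (median 3.31), -2.22 ± 0.74 (adjusted p = 0.00973), and without replicate 2 it no longer passed (-1.87, adjusted p = 0.065). The oligoadenylate synthetase genes OAS3 and OAS1, whose products activate RNase L, fell by 1.80 and 1.22 on the log2 scale, and within the sets OAS1 was at -1.73 in the low-numbered and -0.59 in the high-numbered libraries, where it did not pass. OAS3 was at 8.47, 6.82, 11.1 and 4.15 CPM, each below the lowest control (13.5). IFIT5 fell by 1.08, and the RNA sensor IFIH1 by 0.99 with overlapping ranges. IFIH1 passed in neither numbered set alone (adjusted p = 0.153 and 0.0507 in the low- and high-numbered libraries).

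Antigen presentation moved in both directions. The immunoproteasome gene PSMB8 was at 43.4, 37.9, 38.6 and 33.5 CPM, all below the controls (55.4 to 109, median 84.6), a difference of -1.18 ± 0.19 (adjusted p = 5.43e-08). Its partner PSMB9 was at 6.64, 2.99, 0 and 1.91 CPM within a control range of 0 to 11.2, -1.28 ± 0.50 (adjusted p = 0.0306), and lost the call without replicate 2, 3 or 4 (adjusted p = 0.0715, 0.121 and 0.162), with the other scaling factors and in either numbered set. HLA-E, which presents signal peptides to natural killer receptors, was at 387, 335, 400 and 317 CPM, above every control (119 to 228), and rose by 0.97 ± 0.13. HLA-C rose by 0.68 ± 0.11, from a control median of 182 to between 228 and 304 CPM. HLA-B was at 107, 98.8, 67.5 and 58.4 CPM against 24.3 to 60.7 (median 49), 0.68 ± 0.21 (adjusted p = 0.00586), and passed no longer without replicate 1 (0.53, adjusted p = 0.059). B2M (796, 766, 695 and 639 CPM against 435 to 797) and TAP1, a subunit of the peptide transporter, did not pass, at 0.19 ± 0.17 and -0.04 ± 0.15. HLA genes share long stretches of sequence and the model of HLA-B overlaps HLA-C, so reads between them may be split in a way the files do not show.

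Among the higher members IRF7, the transcription factor that drives interferon genes, was at 28.1, 38.8, 34.7 and 32.2 CPM, all above the controls (0 to 14.2, median 7.01), a difference of 2.06 ± 0.22 (adjusted p = 2e-13). IFI35, a leucine zipper protein induced by interferon, was at 72.9, 65.8, 59.4 and 59.8 CPM against 1.78 to 18.3 (median 12.8), 2.25 ± 0.17 (adjusted p = 5.76e-22). PARP14, an ADP-ribosyltransferase, was at 78.9, 96.7, 77.1 and 75.9 CPM against 20.1 to 51.8, 1.06 ± 0.18 (adjusted p = 6.89e-07). None of these 3 genes overlapped its control range. IFIT3, a partner of IFIT1, was at 14.6, 38.5, 16.5 and 9.65 CPM against 1.27 to 18, 0.97 ± 0.23 (adjusted p = 0.000265). Library 2 alone exceeded the controls, and without it IFIT3 was at 0.44 (adjusted p = 0.229).

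IFIT2 (1.94 ± 0.35), IFI44 (1.49 ± 0.35), the helicase gene DDX60 (1.23 ± 0.36) and BST2 (0.68 ± 0.17) also rose. DDX60 did not pass within the low-numbered libraries (0.82, adjusted p = 0.273). SAMD9L and IFI27 had a control median of 0 CPM and reached 0.780 to 8.14 and 0.520 to 4.50 CPM. They rose by 3.97 ± 0.57 and 2.61 ± 0.68 in the fit, a size that depends on the near-zero controls. Within the high-numbered libraries IFI27 did not pass (adjusted p = 0.227).

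The remaining 15 members did not pass. STAT2 and IRF1, transcription factors of the pathway, were at 0.31 ± 0.25 (47.8, 40.2, 43.2 and 42.8 CPM) and -0.34 ± 0.22 (15, 18.5, 15 and 13.3 CPM), and IRF9 was at -0.21 ± 0.65. ISG15, a ubiquitin-like modifier, was at 7.39, 10.1, 1.30 and 12.4 CPM within its control range of 0 to 14.5, -0.08 ± 0.38 (adjusted p = 0.904). MX1 was at 0.964, 0, 0.390 and 4.39 CPM, 1.45 ± 0.74 (adjusted p = 0.108). The others lay between -0.34 (PARP9) and 0.91 (OAS2), apart from MX2, which had 12 counts in the arsenic group and none in the controls.

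All 24 called members kept their sign within both sets, and 17 passed in each set alone. Genes with and without an ISRE core moved in both directions. Of 21 tested members with the core, 6 were higher and 7 lower (median 0.03). Of 11 without it, 4 were higher and 3 lower (median 0.22). The called members IRF7, IFIT2, HLA-E and IFITM2 had no promoter matched here and are in neither group. RLE scaling in place of TMM moved the median of all genes by 0.14 in arsenic and 0.17 in cadmium, and with it 13 members were higher and 10 lower in arsenic. The summed level of the epithelial markers was 843 to 981 CPM in these libraries, against 2212 to 2888 in the controls, and that of the leukocyte markers (almost all CD14) 0.957 to 4.03 against 20.2 to 78.9. The part of either shift in the member values was not tested.

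The change appeared at the highest dose and little below it. Mean IFITM3 was 765 ± 422, 708 ± 360, 676 ± 372 and 113 ± 27.5 CPM (SD, n = 4) at 0.025, 0.25, 2.5 and 25 µM, and mean IFITM2 was 328, 297, 269 and 40.4 CPM. IFI35 went the other way, with means of 12.2, 13.6, 18.5 and 64.5 CPM, as did PARP14 (31.4, 35, 36.6 and 82.2) and IRF7 (7.33, 5.92, 7.83 and 33.5). The wide SDs of IFITM3 below 25 µM go with the numbered sets, which were still apart at 25 µM (126 and 146 against 95 and 86.4 CPM). At 2.5 µM edgeR called 0 of 39 members, with 5 at an unadjusted p under 0.05, while 1.96% of all genes passed. At 0.25 µM (0.07% of all genes) OAS1 alone was called, at 1.81, 1.76, 5.03 and 2.37 CPM against 5.39 to 15.1 in the controls, -1.77 ± 0.37 (adjusted p = 0.0251). It passed no longer when any 1 of the 4 libraries was left out (adjusted p from 0.079 to 0.177).

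A fit of log2 level on log10 dose over the 4 arsenic doses called 14 members with a rising and 7 with a falling trend, where 29.7% of all genes passed. Per 10-fold step in dose the steepest falls were IFITM1 (-2.62), IFITM2 (-0.92), IFITM3 (-0.83) and IFI44L (-0.79), and the steepest rises SAMD9L (0.79), IFI35 (0.76) and IRF7 (0.69). STAT2, which did not pass at 25 µM, had a rising trend of 0.25.

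**Figure D2:**
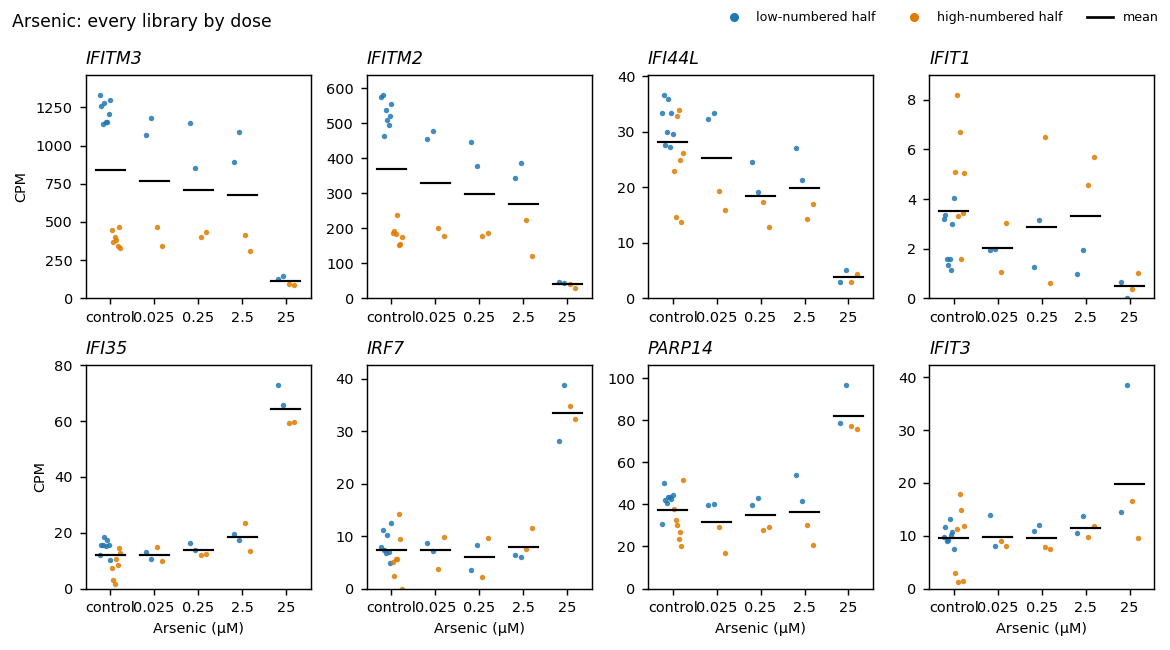
CPM (linear axes from 0) of 8 members in every arsenic library by dose, with the plate's 15 water controls at the left; colour gives the numbered set and the bar the mean. IFITM3, IFITM2, IFI44L and IFIT1 drop at 25 µM and IFI35, IRF7 and PARP14 lie above all controls there, whereas in IFIT3 library 2 stands alone.

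Among the metals of the same plate, which share their controls, arsenic was set against each of the others at 25 µM directly. Against copper 13 members were higher and 6 lower (32.5% of all genes called), against lead 13 and 7 (33.1%), and against mercury 12 and 9 (34.4%). Against cadmium, with 2 libraries, 8.56% of genes and 3 members passed: OAS3 (-3.05), IFITM2 (-2.70) and IFITM3 (-2.70), all lower in arsenic. Without replicate 2 none of these 3 passed (adjusted p = 0.449, 0.0921 and 0.138).

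Thiram, a dithiocarbamate fungicide, lowered IFITM2, IFITM3, OAS1, PARP9, PSMB8 and STAT2 at 25 µM and raised IRF7 and HLA-E. Of 38 members tested, 2 were higher and 11 lower, and 25.9% of all 21307 genes passed. The member median was -0.20 and that of all genes -0.11. By role, calls were 1 higher and 1 lower of 4 transcription factors, 2 lower of 11 RNA-directed genes, 4 lower of 5 membrane factors, 1 lower of 4 in the ISG15 and ADP-ribosylation group, 1 lower of 7 other induced genes, and 1 higher and 2 lower of 7 antigen-presentation genes.

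IFITM2 was at 87.4, 79.2, 74.7 and 116 CPM against 228 to 436 in the controls (median 338), a difference of -2.02 ± 0.16 (adjusted p = 4.25e-21). IFITM3 was at 193, 232, 127 and 260 CPM against 589 to 990 (median 713), -1.96 ± 0.15 (adjusted p = 4.88e-21). Neither range overlapped its controls, and within the low- and high-numbered libraries the differences were -2.19 and -1.78 for IFITM2 and -2.03 and -1.91 for IFITM3. IFITM1 was at 0.326, 0, 0.197 and 0 CPM, 3 counts in all, against a control median of 4.33. Pooled over libraries its control level was 27.1 times the thiram level, with a counting interval of 9.23 to 132. It passed narrowly in edgeR (adjusted p = 0.0467) and in neither numbered set alone (adjusted p = 0.0623 and 0.35 in the low- and high-numbered libraries). BST2, the fourth membrane factor called, was at 84.8, 56, 42.9 and 32.3 CPM against 55.7 to 103, -0.40 ± 0.16 (adjusted p = 0.0477), and lost the call without replicate 2, 3 or 4 (adjusted p from 0.128 to 0.253).

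OAS1 had no count in any thiram library, against 0 to 13 CPM in the controls (median 5.03), which is at least 29.7-fold lower with 3 counts over the group as the floor. In edgeR it passed within the low-numbered libraries (adjusted p = 0.0255) and not within the high-numbered ones (adjusted p = 0.0779). OAS3, its neighbour on chromosome 12, did not pass (22.2, 16.9, 31.7 and 28.6 CPM, 0.01 ± 0.26). PARP9, an ADP-ribosyltransferase that works with DTX3L, was at 6.20, 5.62, 9.85 and 7.45 CPM against 14.1 to 50.2 (median 21.4), -1.67 ± 0.32 (adjusted p = 9.68e-06). STAT2 was at 22, 17.7, 18.5 and 26.5 CPM against 24.5 to 63.6 (median 35.6), -0.94 ± 0.26 (adjusted p = 0.00317). PARP9 lay below every control, while the fourth STAT2 library entered the control range. STAT2 passed within the low-numbered libraries (adjusted p = 0.0114) and not within the high-numbered ones (adjusted p = 0.0963). IFI44L (-0.95 ± 0.37, adjusted p = 0.0454) and IFIT5 (-0.62 ± 0.23, adjusted p = 0.0354) were lower as well. Neither passed in either numbered set alone (adjusted p = 0.241 and 0.142 for IFI44L, 0.25 and 0.133 for IFIT5).

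PSMB8 was at 41.9, 54.6, 25.8 and 25.7 CPM, below every control (63.4 to 123), -1.21 ± 0.17 (adjusted p = 3.03e-09). HLA-B was at 51.2, 63.6, 35.1 and 69.1 CPM against 55.8 to 104, -0.42 ± 0.16 (adjusted p = 0.0402), and did not pass without replicate 1 or 3 (adjusted p = 0.117 and 0.337) or with the other scaling factors. HLA-B passed in neither numbered set alone (adjusted p = 0.269 and 0.206 in the low- and high-numbered libraries). HLA-E was at 285, 274, 208 and 232 CPM against 161 to 238, 0.29 ± 0.09 (adjusted p = 0.0111). Libraries 1 and 2 alone exceeded the controls, and without either HLA-E did not pass (adjusted p = 0.243 and 0.138).

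IRF7 rose by 1.97 ± 0.25 (adjusted p = 8.84e-11), from a control range of 4.72 to 22.1 CPM (median 12.8) to 72.4, 85, 35.1 and 32.7 CPM. All 4 libraries lay above every control, and the low-numbered pair was higher than the high-numbered pair (differences of 2.26 and 1.54 within the sets).

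The other 25 members tested did not pass. IFIT1 was at 5.38, 0, 0 and 0 CPM, MX1 at 0.816, 0, 0 and 0, and OAS2 at 0 in all 4, against control medians of 3.46, 0.12 and 0.57 CPM. ISG15 spread from 0.414 to 30.0 CPM (0.24 ± 0.42), IRF1 was at -0.05 ± 0.25 and PSMB9 at -0.37 ± 0.41. B2M was close to its controls, at 714, 623, 676 and 795 CPM against 652 to 811 (-0.06 ± 0.06). All 13 called members kept their sign in both numbered sets and 5 passed in each. With RLE scaling 2 were higher and 6 lower. Without DMSO control 60, a setting chosen after seeing the data, 2 were higher and 8 lower, and BST2 was among those lost (adjusted p = 0.0513). Of 21 tested members with an ISRE core 6 were lower and none higher, and of 11 without it 4 were lower and none higher. IRF7 and HLA-E, the higher members, and IFITM2 had no promoter matched here and are in neither group. The summed epithelial markers were at 1006 to 1540 CPM in the thiram libraries and 2022 to 2462 in the controls, and their part in the member values was not tested. Thiram library 4, with 2.46 M counts, was the shallowest of the 4.

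At 2.5 µM thiram edgeR called 0 of 38 members, with 1 at an unadjusted p under 0.05, and 0.0329% of all genes. The dose trend (18.5% of all genes) rose for IRF7 (0.69 per 10-fold step) and HLA-E (0.12) and fell for OAS1 (-2.60), IFITM2 (-0.57), IFITM3 (-0.55), PARP9 (-0.47), PSMB8 (-0.41), PARP14 (-0.19) and HLA-B (-0.16). Arsenic and thiram were on different plates with different vehicles, and the difference between their effects was not tested.

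**Figure D3:**
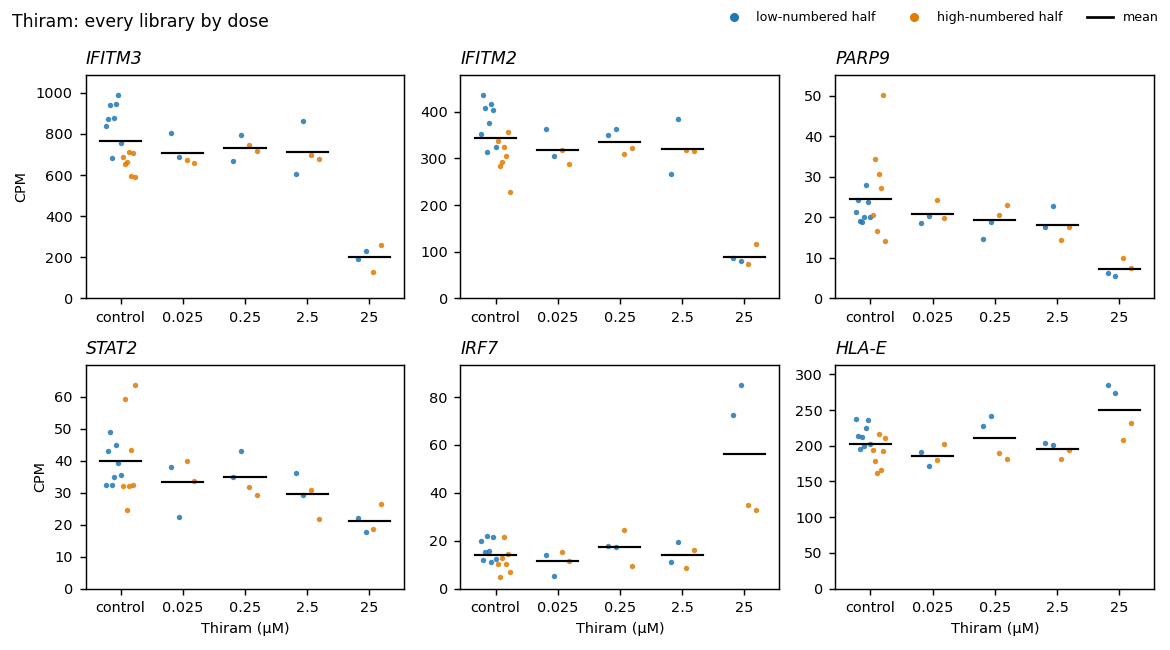
CPM (linear axes from 0) of 6 members in every thiram library by dose, with the 15 DMSO controls of the plate at the left; colour gives the numbered set and the bar the mean. IFITM3, IFITM2 and PARP9 lie below all controls at 25 µM and IRF7 above all of them, with no such separation at the lower doses.

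At 25 µM IFITM1, IFITM2, IFITM3 and HLA-E were each called in 3 chemicals: IFITM2 and IFITM3 in arsenic, thiram and MPB, IFITM1 in arsenic, thiram and copper, and HLA-E in arsenic, thiram and DDE. With MPB, where 1.38% of all genes passed, they were the 2 members called. IFITM3 was at 213, 348, 423 and 366 CPM against 436 to 659 (median 548), -0.72 ± 0.11 (adjusted p = 1.27e-05), and IFITM2 at 122, 177, 248 and 188 CPM against 221 to 340 (median 283), -0.66 ± 0.11 (adjusted p = 3.83e-05). All 4 MPB libraries lay below the controls in IFITM3, and library 3 fell within the control range in IFITM2. Library 1 was lowest for both genes. Without it the differences were -0.55 and -0.51 and neither passed (adjusted p = 0.0763 and 0.0883). Within the low-numbered libraries they were -1.0 and -0.98, and within the high-numbered ones -0.45 and -0.34.

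At 2.5 µM, IFITM2 passed in MPB (229, 278, 193 and 189 CPM, -0.39 ± 0.10, adjusted p = 0.0398, 0.915% of all genes called). In BPA at the same dose (0.605% of all genes) both passed, IFITM2 at 244, 216, 197 and 204 CPM (-0.42 ± 0.10, adjusted p = 0.0191) and IFITM3 at 462, 393, 362 and 437 CPM (-0.42 ± 0.11, adjusted p = 0.0281). At 25 µM BPA neither passed, at -0.20 ± 0.10 and -0.15 ± 0.10. The other chemicals that share these controls also had lower IFITM2 at 25 µM without passing: PPB -0.38, BPF -0.35 and BPS -0.28. Within the high-numbered libraries PPB and BPF passed in edgeR (adjusted p = 0.0105 and 0.0494). Over the 21 chemicals at 25 µM, IFITM2 was on the lower side in 17 and called in 3. The part of the shared controls in these differences was not tested. In BPA IFITM2 did not pass without replicate 3 or 4 (adjusted p = 0.0613 and 0.16), nor IFITM3 without replicate 2, 3 or 4 (adjusted p = 0.0663, 0.149 and 0.0568). In MPB IFITM2 did not pass without replicate 1, 3 or 4 (adjusted p = 0.0645, 0.368 and 0.427). With 1 library left out the differences stayed between -0.36 and -0.48 in BPA and between -0.31 and -0.51 in MPB. Within the low- and high-numbered libraries of BPA both genes passed, at -0.37 and -0.46 for IFITM2 and -0.40 and -0.42 for IFITM3, while in MPB IFITM2 was at -0.23 (adjusted p = 0.72) and -0.53 (adjusted p = 5.03e-07).

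On the metal plate the numbered sets lay far apart in both genes. Copper at 25 µM had IFITM2 at 314, 332, 188 and 153 CPM and IFITM3 at 803, 808, 383 and 336 CPM, and neither passed (-0.62 ± 0.37 and -0.55 ± 0.40). With the numbered set as a term the differences were -0.47 ± 0.11 (adjusted p = 0.00101) and -0.41 ± 0.10 (adjusted p = 0.00343). They were -0.71 and -0.61 within the low-numbered libraries and -0.11 and -0.13 within the high-numbered ones. Lead gave nearly the same picture, IFITM2 at 327, 346, 165 and 180 CPM and IFITM3 at 832, 819, 338 and 383 CPM, with differences of -0.44 and -0.39 when the set was a term (adjusted p = 0.00309 and 0.00652). Cadmium, with IFITM2 at 320 and 196 CPM and IFITM3 at 593 and 881 CPM in 2 libraries, was at -0.94 and -0.65 with that term (adjusted p = 0.0069 and 0.0153). Mercury did not pass in any of these fits.

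Libraries of copper, lead and mercury that share a number deviate together, so the dose trend was also fitted with the number as a block. Without the block edgeR called 0 members in copper (1.71% of all genes) and in lead (0.868%), with 3 and 1 at an unadjusted p under 0.05, and DESeq2 called 0 in each. With it 4 fell in copper (4.97% of all genes called), namely IFITM3 (-0.18 per 10-fold step, adjusted p = 4.49e-05), IFITM2 (-0.17, adjusted p = 0.000221), IFITM1 and IRF1. In lead (3.55%) IFITM2 (-0.14, adjusted p = 0.0062) and IFITM3 (-0.13, adjusted p = 0.00547) fell and ISG15 rose.

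**Figure D4:**
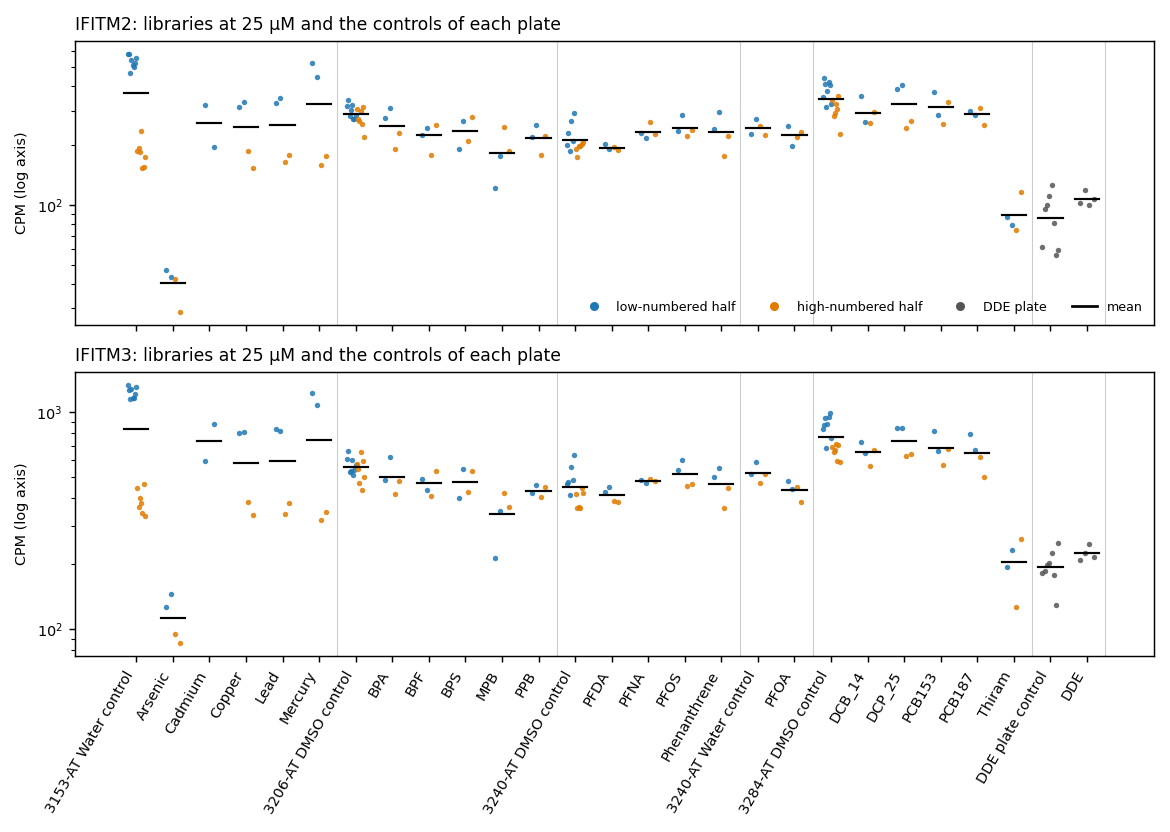
CPM (log axes) of IFITM2 and IFITM3 in every library at 25 µM and in the controls of each plate, with vertical lines between control groups, colour for the numbered set and a bar for the mean. Arsenic and thiram lie below the controls of their plates, and the plate 3153-AT controls fall into a low- and a high-numbered group.

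Copper at 25 µM (5.09% of all genes) called 2 members, both lower. IFITM1 was at 1.12, 0.321, 1.02 and 1.77 CPM against 0 to 10.9 (median 6.79), -2.74 ± 0.69 (adjusted p = 0.00637), and within the high-numbered libraries, whose controls were low, it was at -0.28. IRF1 was at 10.5, 16.2, 6.62 and 9.87 CPM against 4.03 to 25.8 (median 17.8), -0.84 ± 0.21 (adjusted p = 0.00451), and did not pass without replicate 3 (-0.67, adjusted p = 0.0562). Both genes overlapped the range of their controls. The other members whose values are given in every case did not pass: IFIT1 (0.186, 1.67, 1.78 and 2.01 CPM, -1.08 ± 0.49), PSMB9 (-0.82 ± 0.38), STAT2 (-0.54 ± 0.25), ISG15 (-0.40 ± 0.34), B2M (-0.16 ± 0.17), HLA-B (0.06 ± 0.21) and MX1 (0.79 ± 0.70).

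At 2.5 µM copper (3% of all genes) 3 others were called, all lower. IFI44L was at 13.2, 15.5, 15.1 and 15.5 CPM against 13.8 to 36.6, -0.99 ± 0.25 (adjusted p = 0.00944). STAT2 was at 22.9, 21.2, 16 and 7.45 CPM against 18.7 to 43.8, -1.05 ± 0.26 (adjusted p = 0.00784), and did not pass without replicate 4 (-0.81, adjusted p = 0.0872). IFIT1 was at 1.16, 0.771, 0.720 and 0.774 CPM against 1.13 to 8.2, -1.70 ± 0.51 (adjusted p = 0.0441), and did not pass without replicate 2, 3 or 4 (adjusted p = 0.18, 0.168 and 0.107). None of the 3 passed at 25 µM, so these calls follow no dose order.

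Lead at 25 µM (3.85%) called DDX60, at 4.14, 5.64, 6.91 and 4.54 CPM within the control range of 0 to 10.1 (median 2.71), 1.01 ± 0.32 (adjusted p = 0.0496). It did not pass without replicate 2, 3 or 4 (adjusted p = 0.123, 0.273 and 0.0886). Cadmium at 25 µM (11% of all genes, 2 libraries of 1.43 and 1.45 M counts) called OAS3, at 26.4 and 98.0 CPM against 13.5 to 33.1, 1.26 ± 0.42 (adjusted p = 0.0381). Without the second library OAS3 was at 0.05 and not called, so the call rested on that library. The cadmium trend (8.96%) and the direct comparisons with copper (9.29%, 1.43) and mercury (9.99%, 1.32) called OAS3 alone and rest on the same library.

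Depth limited the cadmium group. At these totals 3 counts over the group correspond to 1.99 CPM. IFIT1, IFIT2, DDX60, IRF9, IFI44 and PSMB9 had no count, MX1 likewise, and for PSMB9 this is at least 3.71-fold lower than the controls. STAT2 had 11 counts and IRF1 had 3, and their ratios of control to cadmium were 5.04 (interval 2.82 to 10.1) and 10.2 (3.48 to 49.3), but neither passed (adjusted p = 0.334 and 0.139). ISG15 was at 1.26 and 14 CPM (-0.25 ± 1.59). B2M (684 and 683 CPM) and HLA-B (74.1 and 51.8 CPM) did not pass. The member median was -0.55 and that of all genes -1.42.

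DDE at 25 µM (7.77% of all genes) called 5 of 36 members, all lower, and 3 of them are antigen-presentation genes. HLA-E was at 198, 172, 164 and 154 CPM against 193 to 438 (median 252), -0.75 ± 0.19 (adjusted p = 0.0287). TAP1 was at 61.8, 62.4, 60.3 and 49.8 CPM against 75.0 to 146 (median 86.4), -0.74 ± 0.20 (adjusted p = 0.0345). HLA-C was at 281, 248, 273 and 253 CPM against 294 to 561 (median 355), -0.50 ± 0.15 (adjusted p = 0.0405). TAP1 and HLA-C lay below every control and HLA-E overlapped them in 1 library. The exonuclease gene ISG20 was at 1.13, 0, 1.45 and 0.376 CPM against 2.80 to 8.2 (median 5.37), -2.67 ± 0.61 (adjusted p = 0.023), and at 2.5 µM (0.496% of all genes) at 0.845, 0, 0.540 and 1.78 CPM, -2.43 ± 0.57 (adjusted p = 0.0487). The call at 2.5 µM was lost without replicate 1, 2 or 3 (adjusted p = 0.201, 0.285 and 0.27), with no filter (0.0517) and after thinning (0.0501), at differences of -2.12 to -2.58. OAS2 had 2 counts in the group, and its control level was 23.3 times higher (interval 6.25 to 196). Without the second or the third DDE library no member passed at 25 µM. IFITM1 and MX1 were not tested on this plate. The label numbers of the DDE libraries run on from dose to dose, so dose and number cannot be told apart. The dose trend called 0 of 36 members and 0 of 13921 genes. The member median was -0.05, -0.15, -0.14 and -0.19 at 0.025, 0.25, 2.5 and 25 µM.

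Below 25 µM the list was nearly silent. Over the 21 chemicals edgeR called 7 of 801 member tests at 2.5 µM, 1 at 0.25 µM and 0 at 0.025 µM, where 0.412%, 0.0748% and 0.0104% of all gene tests were called. DESeq2 called 9, 5 and 1. At 0.025 µM an unadjusted p under 0.05 was found in 64 tests (7.99%), against 6.36% over all genes. The 7 calls at 2.5 µM are those given above for copper, MPB, BPA and DDE. Dose trends outside arsenic, thiram and cadmium gave 0 calls in 685 tests by edgeR and 0 by DESeq2, with 53 (7.74%) at an unadjusted p under 0.05 against 6.24% of all genes.

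The controls themselves differed in some members. On plate 3240-AT the 4 water controls and the 12 DMSO controls differed in 7 of 38 members (4.08% of all genes), each lower in water. DDX60 was at 0.95, 1.11, 1.61 and 4.14 CPM in water and at 1.78 to 8.17 in DMSO (median 5.69), -1.78 ± 0.42. PSMB9 was at 5.36, 5.34, 4.24 and 5.01 CPM in water and at 5.99 to 16 in DMSO, -0.98, with no overlap. IRF7 (-1.21), IFI6 (-0.79), HLA-B (-0.70), IRF1 (-0.69) and TAP1 (-0.42) were the others, and the number called fell to 2 when water control 39 was left out, to 3 without 40 and to 4 without 48. Between low- and high-numbered controls, 9 members differed on plate 3153-AT (5.42% of all genes). IFITM3 (1.64), IFITM2 (1.53), IFI35 (0.97), IRF1 (0.76), B2M (0.69), PSMB8 (0.53), HLA-E (0.51) and HLA-C (0.48) were higher in the low-numbered controls and HERC6 (-0.78) lower. On plate 3206-AT (1.69%) HLA-C differed (0.29) and on 3284-AT (1.55%) IFITM3 (0.39). On plate 3240-AT edgeR called 0 of 38 members (0.175% of all genes), with 8 at an unadjusted p under 0.05, and DESeq2 called 1.

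Other genes of the interferon pathway were taken from a list of 73, of which 61 were tested on the plates of arsenic, cadmium and thiram. In arsenic at 25 µM 12 were higher and 14 lower (median -0.15), where 41.4% of all genes passed. The kinase gene JAK1 rose by 1.38 ± 0.09 (from a mean of 70.7 to 186 CPM), the guanylate-binding protein gene GBP3 by 1.13 and the helicase gene HELZ2 by 1.07, while the interferon gamma receptor gene IFNGR1 fell by 1.76 ± 0.26 (from 160 to 48.5 CPM), IRF2 by 1.53 and the phosphatase gene PTPN6 by 1.51. In thiram 9 were higher and 17 lower (median -0.31; 25.9% of all genes passed), with GBP1 at 1.24, JAK2 at 1.22 and GBP3 at 1.06, and with the ISG15-conjugating enzyme gene UBE2L6 at -2.21, TRIM22 at -1.55 and the DNA sensor gene IFI16 at -1.49. In cadmium, where 11% of all genes passed, 2 were higher and 8 lower. The higher ones were NLRC5, the activator of class I HLA genes, at 3.63 ± 0.40, and JAK1 at 0.71. Among the lower were GBP1 (-5.11 ± 1.62), DTX3L (-4.26 ± 1.29), IFNGR1 (-3.20) and ADAR (-0.70). GBP1 and DTX3L averaged 0.70 and 1.26 CPM in cadmium. Both lie below the 1.99 CPM that 3 counts over the group give, so the size of their falls is uncertain. Of the interferon genes themselves 1 of 6 listed was abundant enough to test on these plates, and it was not called.

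To set libraries side by side, the members were averaged in each library as log2(CPM + 1), over 38 genes, or 36 on the DDE plate. The average was 3.98, 3.88, 3.71 and 3.89 in arsenic at 25 µM, within the 3.0 to 4.14 of its plate. The numbered sets went opposite ways. Arsenic libraries 1 and 2 lay below every low-numbered control (3.99 to 4.14), the higher one narrowly (3.983 against 3.987). Libraries 3 and 4 lay above every high-numbered control (3.28 to 3.63). Neither placement was particular to arsenic at 25 µM. The low-numbered copper libraries at 25 µM (3.83 and 3.84) also lay below those controls. The high-numbered cadmium libraries at 2.5 µM (3.70 and 3.76) also lay above theirs. In thiram at 25 µM the average was 3.78, 3.65, 3.26 and 3.35, against a plate median of 4.01. The lowest average of all was a cadmium library at 25 µM (3.0).

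**Figure D5:**
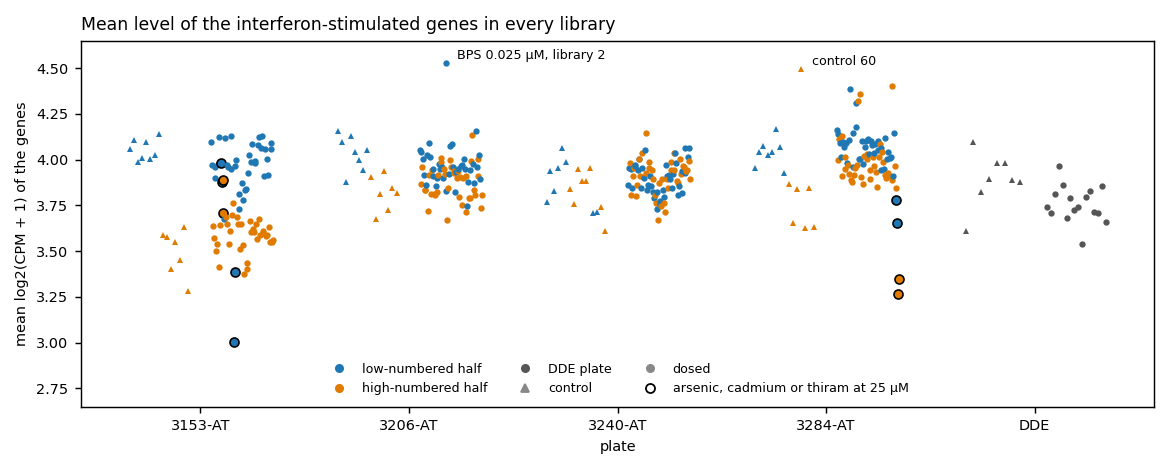
Mean log2(CPM + 1) over the interferon-stimulated genes in every library by plate, with triangles for controls, circles for dosed libraries, colour for the numbered set and black rings for arsenic, cadmium and thiram at 25 µM. Libraries highest on their plates are BPS at 0.025 µM (4.53) and DMSO control 60 (4.50), and 2 thiram libraries lie lowest on their plate.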

How the data were processed

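RNA from MCF10A wells was sequenced as plexWell libraries, and read counts per gene symbol, as the authors deposited them for each library, were used without change. Per the submitters' processing notes the tools were FastQC, MultiQC, STAR and featureCounts with build GRCh38. For versions, annotation, strand setting and filters the entry is: not given in the sources used here. Control libraries of DDE were taken by their plate barcode. A further cadmium library at 25 µM carries another plate's barcode and entered an alternative fit alone.

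Each plate was fitted as a whole in edgeR 4.0.16 (R 4.3.3, limma 3.58.1): filterByExpr with a minimum count of 10 and a minimum total of 15, TMM scaling, and the quasi-likelihood test without covariates, with Benjamini-Hochberg adjustment over all genes tested and a threshold of 0.05. CPM use TMM-scaled totals. Genes tested numbered 24295 (3153-AT), 22301 (3206-AT), 19468 (3240-AT), 21307 (3284-AT) and 13921 (DDE). The scripts were tested on simulated data. Where a group had no count, 3 counts over the group were the floor, and 95% intervals of ratios are exact and cover counting error only.

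Values are given library by library for the 4 highest and the 4 lowest called members whose average log2 CPM was 2 or more, for every called member where a comparison called 1 to 3, and for ISG15, IFIT1, MX1, STAT2, IRF1, HLA-B, B2M and PSMB9 in arsenic, cadmium, copper and thiram. OAS3, PSMB8, HLA-E, ISG20 and other members named outside this rule were chosen after their values were seen. Of the other pathway genes the 3 highest and the 3 lowest called are named. The members, lists and tests were chosen with earlier results of these data known.

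Alternatives were RLE scaling, DESeq2 1.42.0, no filter, the compared groups alone, the numbered set as a term, each set alone, libraries thinned to the smallest total of their plate, a replicate block, each replicate left out and, added after seeing the data, thiram without DMSO control 60. Same-numbered dosed libraries deviated together (every correlation over 0.1) in copper, lead, mercury and PFOA, and in no chemical with the controls of the same number (-0.10 to 0.12 on plate 3153-AT). Gene positions are those of GENCODE for GRCh38.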

Additional observations from a re-analysis of the deposited data

Results flagged for a closer look

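Single libraries stood apart from the other 3 of their group in 7 values. The gap between the outermost library and its neighbour exceeded Dixon's 95% critical value, which chance alone passes in about 1 in 20 groups. It was passed in 2 of 83 groups for the average over the members and in 5 of 54 for the CPM of a named gene. The average of cadmium at 0.025 µM, library 2, was 4.12 against 3.65 to 3.69 in the others, and that of phenanthrene at 2.5 µM, library 2, was 4.07 against 3.92 to 3.94. IFIT1 in copper at 2.5 µM was at 1.16 CPM in library 1 against 0.720 to 0.774. In thiram at 25 µM library 1 alone held IFIT1 (5.38 CPM) and MX1 (0.816 CPM), which had no count in the other 3. PARP14 in arsenic at 25 µM was at 96.7 CPM in library 2, the highest of 4 that all lay above the controls. TAP1 in DDE at 25 µM was at 49.8 CPM in library 4, the lowest of 4 that all lay below the controls.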

How the results depend on the processing

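Of 44 named differences, recomputed under the alternatives 531 times, none changed sign, and 12 passed in every alternative run: IFITM1, IFITM2, IFITM3, IFI44L, IFI35, IRF7 and PARP14 in arsenic at 25 µM, IFITM2, IFITM3, IRF7 and PARP9 in thiram, and HLA-C between the numbered controls of plate 3206-AT. The counts of arsenic at 25 µM (24, or 20 to 23 without 1 replicate) and of its trend (21, or 16 to 18) stayed within 1.5 times of the main value in every alternative. For the others the cause of a change was not tested. Counts for thiram at 25 µM (13) were 8 with RLE scaling, 8 and 6 within the low- and high-numbered sets, and 8 to 10 without 1 replicate. Its trend (9) was 3 in the high-numbered set. Cadmium (1) gave 10 with DESeq2, 10 thinned, 2 with RLE, 2 with the groups alone, 0 without the filter, 3 with the set as a term, 3 in the low-numbered set and 0 to 2 without 1 replicate. Its trend (1) gave 11, 7 thinned, 0 unfiltered, 4 with the term, 4 in the low-numbered set, 0 with the third library and 0 to 1 without 1 replicate. Copper (2) gave 1 with DESeq2, 4 with the groups alone, 5 with the term, 0 thinned, 5 and 0 in the sets and 1 to 2 without 1 replicate. Lead (1) gave 0 with DESeq2, RLE or thinning, 2 with the groups alone or unfiltered, 5 with the term, 5 and 0 in the sets and 0 to 1 without 1 replicate. MPB (2) gave 1 in the high-numbered set and 0 to 2 without 1 replicate, and DDE (5) gave 3 with DESeq2 and 0 to 3. The 14 other chemicals (0) gave 2 with the groups alone, 4 unfiltered, 1 with the term, and 2 and 5 in the sets. At 2.5 µM (7) the sum was 12 unfiltered, 10 with the term, 2 thinned, 11 in each set and 4 to 8 without 1 replicate. At 0.25 µM (1) it was 5 with DESeq2, 2 with the groups alone, 8 unfiltered, 2 with the term, 8 and 3 in the sets and 1 to 3, and at 0.025 µM (0) 1, 6 unfiltered, 2 with the term, 6 and 3 in the sets and 0 to 5. Trends of the 18 other chemicals (0) gave 4 unfiltered, 7 with the term, 11 and 3 in the sets and 0 to 2. The metal pairs (65) gave 102 with DESeq2. Water against DMSO (7) gave 4 and 1 in the sets and 2 to 7 without 1 control, and the numbered controls (11) gave 25 with DESeq2, 23 alone and 19 unfiltered.

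The replicate block, with the number of the dosed libraries, gave 8 trend calls in the 18 chemicals and 4 in cadmium. At 25 µM on plate 3153-AT, where the numbers did not pair with controls 1 to 4, it gave 11 calls in copper, 7 in lead and 3 in cadmium, from 4 controls that are all low-numbered. In mercury, which had no call in the main fit, the edgeR fit with this block called IFITM2 (-0.97, adjusted p = 7.61e-09). Depth limits the low members: at the floor of 3 counts a cadmium group of 2 libraries resolves 1.99 CPM, above the control level of MX1, OAS2 and SAMD9L.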

Other observations

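The 2 libraries with the highest average over the members were neither arsenic nor thiram. Library 2 of BPS at 0.025 µM (8.74 M counts) averaged 4.53, while the other 3 libraries of that dose averaged 3.83, 3.67 and 3.85. It was the highest of the 93 libraries of its plate in 10 of 38 members. The library was picked by its average over these members, so high values in single members follow from that choice. How often it was highest over all genes was not counted. IFI27 was at 11.4 CPM, against 0 to 2.17 in the 15 controls, OAS2 at 11.9 against 0 to 1.93, OAS1 at 11.4 against 1.81 to 7.86, SAMD9L at 4.57 against 0 to 1.42, and IFI6, an inhibitor of cell death, at 48.4 against 11.3 to 31.7. IFI35, IFI44L, IFITM1, IRF9 and PARP14 were the others. MX1 (2.23 CPM) and IFIT1 (8.48 CPM) lay just above their controls. No member was called for BPS at any dose.

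On plate 3284-AT the library with the highest average was a DMSO control (number 60, 4.50). It was the highest of 95 libraries in 5 of 38 members, namely IFI44 (9.17 CPM, next control 7.28), OAS1 (13, next 7.35), OAS2 (6.63, next 1.54), SAMD9 (25.0, next 14.5) and TAP1 (96.8, next 91.6). ISG15 was at 29.8 CPM there. Other libraries of the plate came close in average, up to 4.40 in thiram at 0.25 µM and 4.39 in DCP_25 at 0.025 µM. The high-numbered controls of the plate, which include control 60, held 2.31 to 4.73 M counts. Control 60 was picked by its average too, so its high values in single members follow from that choice. Control 60 and the BPS library are described as values and enter no comparison of their own.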
